A study of Homo sapiens with 4 samples.

Results

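YAP-TEAD signalling was examined here through 10 genes: the coactivator genes YAP1 and WWTR1, the DNA-binding factor genes TEAD1 and TEAD4, and the target genes CCN1, CCN2, ANKRD1, AMOTL2, AJUBA and LATS2. The genes were taken by name, out of 19970 protein-coding genes with a RefSeq position (GRCh38.p14) on chromosomes 1 to 22 and X. Every H3K9la region that overlapped one of them or lay within 50 kb of it was included, which gave 96 of 56875 regions in the sg3 list and 53 of 40332 in the V2 list. H3K9la is lactylation of lysine 9 on histone H3, mapped by ChIP-seq with an anti-H3K9la antibody in KYSE30, a line of human oesophageal squamous carcinoma cells grown in DMEM with serum in both arms. The series title names SIRT3, a mitochondrial sirtuin, as an eraser of this mark. The arms are called sg3 and V2, and the sources used here do not say how the cells of either arm were made. With 1 ChIP and 1 input library for each arm, no difference below has a replicate check and none was tested.

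YAP1 and the WWTR1 product, known as TAZ, are coactivators without a DNA-binding domain of their own. They reach their target genes through TEAD factors, which recognise the motif GGAATG. The LATS kinases of the Hippo pathway phosphorylate both coactivators and keep them out of the nucleus. Several targets, among them LATS2, AMOTL2 and AJUBA, encode proteins that act back on this pathway, while CCN1, CCN2 and ANKRD1 are the targets most often read as a sign of YAP activity. YAP and TAZ are active in the proliferating layer of squamous epithelia.

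As a check of the labelled cell type, regions at gene starts were counted for lists of marker genes. No start was listed for 4 squamous, 6 fibroblast, 3 endothelial and 3 blood genes. Either end of the gene was used as the start for these, so a region counted there may lie at the 3' end. An sg3 region lay within 1 kb of a start in 10 of 10 squamous epithelial markers, and a V2 region in 8 of 10, with TP63 and KRT5 unmarked at their starts in V2. Among markers of other cells the sg3 list marked 2 of 8 fibroblast, 1 of 5 endothelial and 1 of 5 blood genes. The V2 list marked 2, 0 and 0 of them, and the part of such cells in the results was not tested. Over all protein-coding genes, 47.2% were marked in this way in sg3 and 28.7% in V2. The 2 of 8 fibroblast genes in V2, or 25.0%, are thus close to the share of all genes. Read depth is not given in either list, so a longer sg3 list cannot be told apart from a deeper or better enriched library. Fold enrichment (ChIP pileup over background at the summit) and -log10 q are the authors' values and rank regions within 1 list only.

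The promoters show what lies at the starts of these genes. The RefSeq promoter table (GRCh38.p14) held 10 starts for 7 of the genes. CCN1, TEAD1 and TEAD4 had no entry, and either end of the gene was used for them. Each promoter was read from 250 bases before to 50 bases after its start, and GGAATG was searched on both strands (GGAATG or CATTCC). It was found in 6 of the 10 promoters, belonging to 6 genes, against 12.2% of all promoters of protein-coding genes. The CCN2 promoter held 3 matches, a number reached by 0.104% of all promoters, and the ANKRD1 promoter held 2, which 1.06% reach or exceed. Most of the matching genes were taken as known YAP-TEAD targets, so this count is no independent finding. A loose AP-1 pattern was searched too (TGANTCA, with N any base, its own reverse complement). It matched in 1 of the 10, in ANKRD1 as TGATTCA at 195 bases before the start, against 6.15% of all promoters. Since any base was allowed at N, a match is not by itself an AP-1 site.

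The 250 bases before the start are printed for 3 genes that stand for the different situations met here: YAP1, whose promoter lay inside an sg3 region, CCN2, whose sg3 region stopped at the start, and ANKRD1, which had no region. Capitals mark GGAATG, and each sequence runs 5′ to 3′ on the strand of its gene.
YAP1 (chr11:102110197-102110446, + strand): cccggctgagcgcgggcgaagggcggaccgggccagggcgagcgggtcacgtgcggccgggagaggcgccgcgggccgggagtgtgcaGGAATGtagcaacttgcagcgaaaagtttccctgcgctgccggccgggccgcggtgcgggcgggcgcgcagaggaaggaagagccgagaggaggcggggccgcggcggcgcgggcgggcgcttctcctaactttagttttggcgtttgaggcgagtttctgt
CCN2 (chr6:131951373-131951622, - strand): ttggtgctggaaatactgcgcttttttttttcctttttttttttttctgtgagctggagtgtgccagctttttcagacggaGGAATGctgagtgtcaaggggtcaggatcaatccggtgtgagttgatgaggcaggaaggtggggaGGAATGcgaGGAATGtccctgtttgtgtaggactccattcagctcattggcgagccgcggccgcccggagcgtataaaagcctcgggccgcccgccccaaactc
ANKRD1 (chr10:90921088-90921337, - strand): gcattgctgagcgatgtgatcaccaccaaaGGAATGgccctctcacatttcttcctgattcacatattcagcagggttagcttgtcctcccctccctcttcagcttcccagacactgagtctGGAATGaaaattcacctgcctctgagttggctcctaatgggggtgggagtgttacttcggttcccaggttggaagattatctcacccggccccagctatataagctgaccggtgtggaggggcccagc

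H3K9la regions were unevenly spread over the 10 genes, with the highest counts in the long windows of WWTR1 and TEAD1, the highest sg3 density at AMOTL2 and no region at ANKRD1. The sg3 list had regions in 9 of the 10 windows and the V2 list in 7, while 78.3% of all protein-coding genes had an sg3 region in such a window and 64.4% a V2 region. The sg3 count was the higher one for 9 of the 10 genes, which also held for 60.4% of all protein-coding genes. The windows differ in size with gene length, so counts were also set per 100 kb. Pooled, the 10 windows held 5.28 sg3 regions and 2.92 V2 regions per 100 kb, values weighted to the long windows. The median protein-coding gene, a per-gene measure unlike the pooled one, had 1.98 and 0.922. Gene by gene, TEAD4 (1.10) and ANKRD1 (0) lay below this median in sg3. In V2, TEAD4, ANKRD1 and AJUBA (0 each) and LATS2 (0.53) did, and the other genes lay above it in each list. By density per gene AMOTL2 led the sg3 list with 12.5 regions per 100 kb, above 92.7% of protein-coding genes. WWTR1 led the V2 list with 6.83, above 87.5%. In the windows as a whole, regions covered 71.3 kb in sg3, with a mean width of 743 bases, and 33.4 kb in V2, with a mean width of 631 bases.

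**Figure D1:**
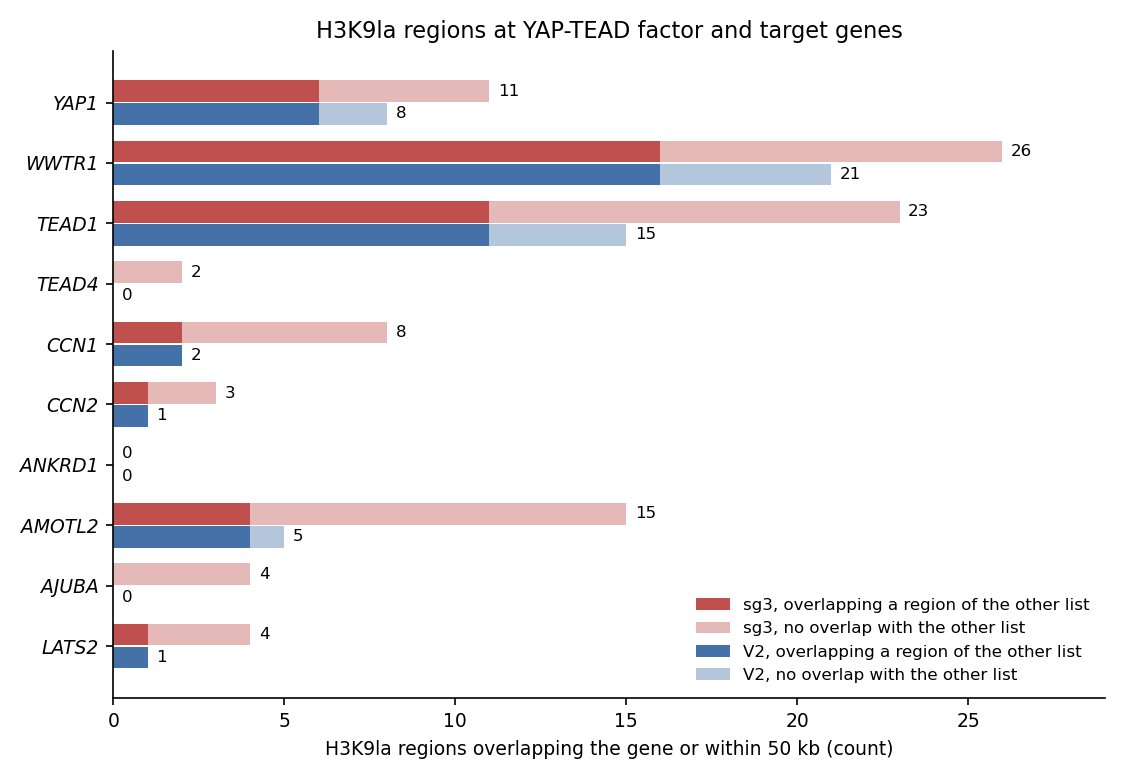
Number of H3K9la regions (x axis) overlapping each gene or within 50 kb of it, with sg3 above V2 for each gene. Solid colour marks regions that overlap a region of the other list and pale colour those that do not; WWTR1 has the most in both lists (26 in sg3 and 21 in V2), and ANKRD1 has 0 in both.

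YAP1, the first of the coactivators, was marked at its start and past its 3' end in both arms. Its window held 11 sg3 regions and 8 V2 regions. The gene runs from 102110447 to 102233424 on chromosome 11, + strand. The sg3 region at the start ran from 102109865 to 102111812 (fold enrichment 8.86, -log10 q 66.6) and contained the whole promoter printed above, with its GGAATG at 162 bases before the start. The V2 region ran from 102110514 to 102111847 (4.88, 31.2), began 67 bases inside the gene and 224 bases from that motif. The 2 regions thus had close ends on the gene side and differed on the upstream side, where the sg3 region also reached the divergent gene YAP1-DT.

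The strongest fold enrichments of the YAP1 window lay past the gene, outside any RefSeq gene. In sg3 a run of 5 regions from 102253652 to 102259283, starting 20228 bases beyond the gene, reached a fold enrichment of 12.2 (-log10 q 56.2). In V2 a run of 5 regions from 102254653 to 102259043 reached 13.3 (44.2). Their highest regions covered nearly the same stretch, from 102255738 to 102256354 in sg3 and from 102255731 to 102256315 in V2. YAP1 was the nearest protein-coding gene to each of these regions. A pair of sg3 regions still farther out, with fold enrichments of 4.39 and 8.98, had no V2 counterpart.

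WWTR1, which encodes TAZ, had the most regions in its window of the 10 genes, with 26 in sg3 and 21 in V2. The gene lies on chromosome 3 from 149517235 to 149724788 on the - strand, and the table lists starts at 149658025 and 149703273. Regions sat on either side of the start at 149658025, which itself lies inside the gene. In sg3 they ran from 149656775 to 149657989 (fold enrichment 6.49, -log10 q 37.4) on the gene side and from 149658199 to 149660192 (9.93, 80.5) on the upstream side. In V2 they ran from 149656838 to 149657228 (2.98, 7.59) and from 149658224 to 149660097 (8.23, 55.0). The upstream region was thus almost the same in both lists and ranked above 97.4% of sg3 regions and 95.8% of V2 regions by -log10 q. The gene-side region was 1215 bases wide in sg3 and 391 bases wide in V2. The other listed start had no region near it, the closest being 31633 bases away in sg3 and 15504 bases away in V2.

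A dense run inside WWTR1 was the largest group of regions in these windows. It held 10 sg3 regions from 149573151 to 149583551 and 7 V2 regions from 149573992 to 149583373, and each V2 region of the run had an sg3 partner. The highest fold enrichments of the run were 13.5 in sg3 and 10.9 in V2, at different regions of the run. Another group lay over TM4SF4, a neighbouring tetraspanin-family gene, which was the nearest gene to 6 of the 8 sg3 regions and all 6 of the V2 regions whose nearest protein-coding gene was not WWTR1. The other 2 sg3 regions were nearest to COMMD2. By distance these regions thus belong to other genes than WWTR1. Without them WWTR1 had 18 sg3 and 15 V2 regions, where TEAD1 had 23 and 15 counted in the same way.

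TEAD1, a TEAD factor gene of 270317 bases on chromosome 11 (12674421 to 12944737), carried its regions within the gene. All 23 sg3 regions and all 15 V2 regions overlapped it, and none lay in the flanks. The region at its lower-coordinate end ran from 12674481 to 12675431 in sg3 (fold enrichment 3.17, -log10 q 10.1) and from 12674591 to 12675410 in V2 (4.13, 14.9). In both lists the fold enrichment at this end was below that of the strongest regions deeper in the gene. The highest -log10 q belonged to a region from 12839035 to 12840963 in sg3 (10.9, 63.5) and from 12839048 to 12840439 in V2 (9.88, 43.6), the same place. The highest sg3 fold enrichment, 13.8, belonged to the region from 12724024 to 12725168, whose V2 counterpart from 12724638 to 12725061 had 5.70. A run of 6 sg3 regions from 12692359 to 12698247 met 3 V2 regions. The higher-coordinate part of the gene was free of regions, which stopped 102830 bases before that end in sg3 and 99503 bases before it in V2.

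TEAD4, the other TEAD factor gene (chromosome 12, 2959397 to 3040676), had 2 weak sg3 regions and no V2 region. The sg3 region near its lower-coordinate end spanned 2959732 to 2960090 (fold enrichment 1.84, -log10 q 2.41). Only 0.156% of sg3 regions had a lower -log10 q, and the smallest value in the list is 2.02. The other, from 3076986 to 3077417 (2.32, 3.98), overlapped TSPAN9, a tetraspanin gene, with its midpoint 178 bases outside that gene. At a -log10 q of at least 5, TEAD4 had no region in either list.

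**Figure D2:**
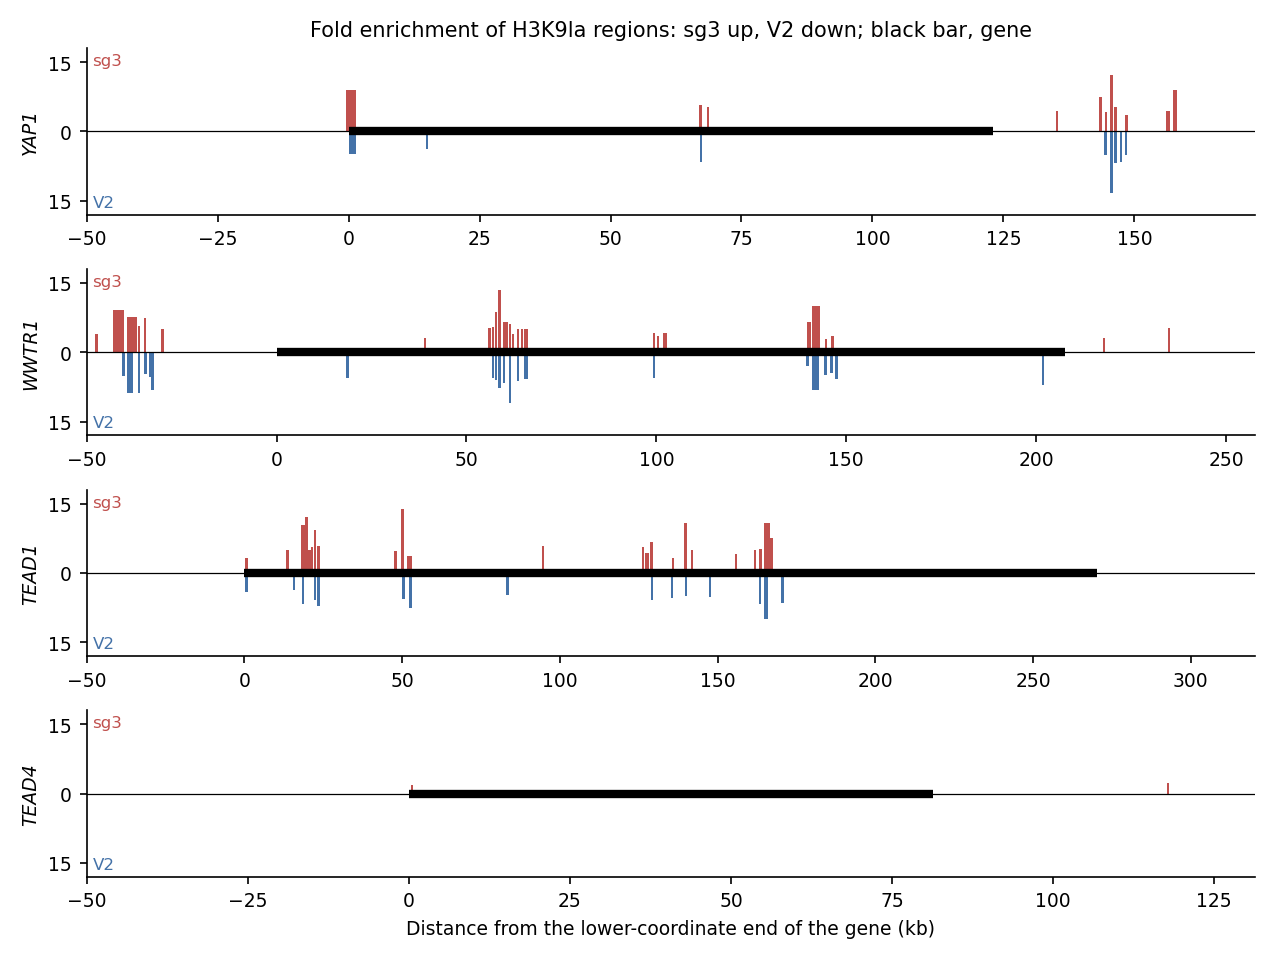
H3K9la regions around the 4 factor genes, by distance in kb from the lower-coordinate end of the gene (x axis) and fold enrichment (y axis), with sg3 regions drawn up and V2 regions drawn down and the gene as a black bar; narrow regions are drawn at a minimum width. Groups of regions past YAP1, inside WWTR1 and inside TEAD1 recur in both lists, while TEAD4 has 2 sg3 regions of fold enrichment 1.84 and 2.32 and none in V2.

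Among the targets, CCN1 and CCN2 encode secreted matricellular proteins. Both had a region at the gene in sg3 alone, and only some of the regions beyond the gene were in both lists. CCN1 (chromosome 1, 85580761 to 85583950) had 8 sg3 regions and 2 V2 regions. The sg3 regions at its lower-coordinate end ran from 85579602 to 85580496 (fold enrichment 6.67, -log10 q 24.0) and from 85580737 to 85581553 (4.77, 19.6), and neither overlapped a V2 region. The second of these covered the lower-coordinate end of the gene itself. The region with the highest -log10 q of the window ran from 85576252 to 85578417 in sg3 (6.65, 66.2) and from 85576443 to 85577370 in V2 (4.09, 33.8), though other regions of the window had higher fold enrichment in both lists. A further pair ran from 85574753 to 85575487 in sg3 (6.25, 24.3) and from 85574530 to 85575277 in V2 (7.60, 21.6). These shared regions overlapped DDAH1, an enzyme gene that degrades methylarginines, and DDAH1 was the nearest protein-coding gene to 3 sg3 regions and to both V2 regions. The V2 regions of the CCN1 window are therefore nearer to DDAH1 than to CCN1. The remaining sg3 regions had no V2 partner. They were 1 over DDAH1, from 85572401 to 85572905 (6.74, 17.1), and 3 past the higher-coordinate end of CCN1.

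CCN2 (chromosome 6, 131948176 to 131951372, - strand) had 3 sg3 regions and 1 V2 region. The sg3 region at the start ran from 131950894 to 131951343 (fold enrichment 3.20, -log10 q 9.26), inside the gene, and stopped 29 bases short of the start. It ranked above 32.7% of sg3 regions by -log10 q. The 3 GGAATG matches printed above, at 169, 104 and 95 bases before the start, lay outside it at distances of 193, 128 and 119 bases. The V2 list had its nearest region 5019 bases upstream, from 131956391 to 131956841 (4.93, 8.62). It overlapped an sg3 region from 131956475 to 131956839 (5.04, 10.4). This upstream place, which overlaps the antisense gene CCN2-AS1, was the only part of the CCN2 window in both lists.

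ANKRD1, a gene for a muscle ankyrin repeat protein that is also a common YAP target (chromosome 10, 90912096 to 90921087, - strand), had 0 regions in sg3 and 0 in V2. No region of either list was found within 50 kb of 21.2% of protein-coding genes. The lists hold only regions past a threshold, so weaker signal at ANKRD1 is not visible in them. With a window of 100 kb, 3 sg3 regions and 2 V2 regions were counted.

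AMOTL2, a target whose angiomotin-family product binds and restrains YAP, had 15 sg3 regions and 5 V2 regions. The gene runs from 134355345 to 134375417 on chromosome 3, - strand, with listed starts at 134374447 and 134375417. Both starts had an sg3 region, from 134373155 to 134374411 (fold enrichment 4.81, -log10 q 27.4) and from 134375326 to 134375974 (5.78, 18.7), and neither of these overlapped a V2 region. The nearest V2 region began 4136 bases upstream of the outer start. The strongest region of the window lay farther upstream in both lists, from 134381219 to 134381895 in sg3 (16.8, 82.7) and from 134381295 to 134381858 in V2 (10.0, 30.4). In sg3 it ranked above 97.6% of the list by -log10 q and had the highest fold enrichment and -log10 q of the 96 regions. It lay outside any RefSeq gene. Downstream of the gene sg3 had 10 regions and V2 had 2.

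LATS2, a target that encodes a kinase inhibiting YAP and TAZ, was the target whose start was marked in both lists. The gene lies on chromosome 13 from 20973036 to 21061586, - strand, and its window held 4 sg3 regions and 1 V2 region. At the start the sg3 region ran from 21060418 to 21061599 (fold enrichment 6.55, -log10 q 42.5) and the V2 region from 21060489 to 21061547 (3.12, 15.1). The sg3 region reached over the start, and the V2 region stopped 39 bases inside the gene. A GGAATG at 9 bases past the start lay in the sg3 region and 25 bases outside the V2 region. A second sg3 region, from 21061964 to 21062323 (3.71, 9.27), lay just upstream with no V2 counterpart.

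AJUBA, a target that encodes a LIM-domain inhibitor of LATS kinases (chromosome 14, 22971177 to 22982551, - strand), had no region over the gene. Its window held 4 sg3 regions and 0 V2 regions, and the nearest was 13943 bases from the gene. All 4 were nearer to another gene: 1 to PRMT5, an arginine methyltransferase gene, 1 to HAUS4, and 2 to C14orf93. Their fold enrichments ranged from 3.02 to 6.76 and their -log10 q from 7.69 to 15.4. No region in this window was thus assigned to AJUBA by distance.

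**Figure D3:**
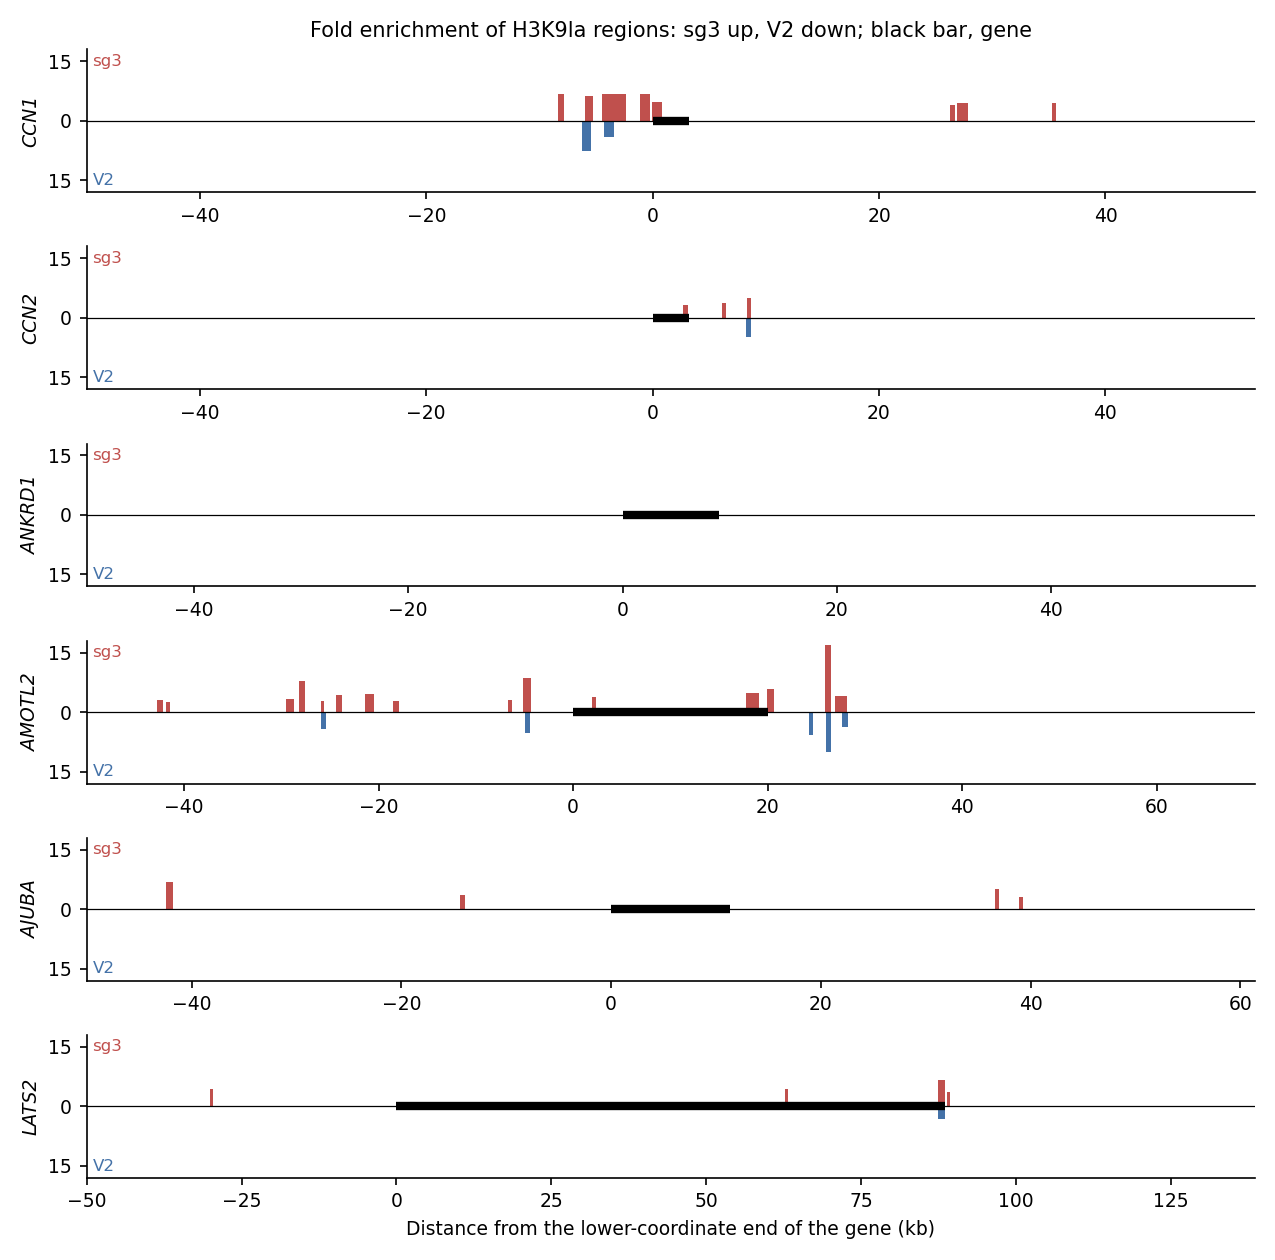
H3K9la regions around the 6 target genes, by distance in kb from the lower-coordinate end of the gene (x axis) and fold enrichment (y axis), with sg3 regions drawn up and V2 regions drawn down and the gene as a black bar; narrow regions are drawn at a minimum width. The highest sg3 region (16.8) stands beside AMOTL2, opposite a V2 region of 10.0, and ANKRD1 has no region.

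Starts were marked more often in sg3 than in V2. An sg3 region lay within 1 kb of a start of 8 of the 10 genes, all except ANKRD1 and AJUBA, and a V2 region at 4 of the 10, namely YAP1, WWTR1, TEAD1 and LATS2. Over all protein-coding genes these shares were 47.2% and 28.7%. The sg3 list alone marked 4 of the 10 (TEAD4, CCN1, CCN2 and AMOTL2), against 18.9% of protein-coding genes, and the V2 list alone marked none, against 0.441%. Among genes with an sg3 region at a start, 4 of 8 here and 3775 of 9419 protein-coding genes had no V2 one. TEAD4 is counted through a region of -log10 q 2.41, near the floor of the list. With a -log10 q of at least 5 the sg3 count was 7 and the V2 count 4. With a fold enrichment of at least 4 the sg3 count was 5 and the V2 count 3. Of the 10 listed promoters, 6 were touched by an sg3 region and 2 by a V2 region, where 32.3% and 14.8% of all promoters of protein-coding genes were. Of the 9 GGAATG matches in them, 2 lay in an sg3 region, in YAP1 and LATS2, and 0 in a V2 region.

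Regions at the listed starts tended to lie beside the start. Of the 8 sg3 regions within 1 kb of a listed start of these genes, 5 had their summit on the gene side and 3 covered the start. Of the 4 V2 regions, 3 had their summit on the gene side and 0 covered the start. Over all listed starts of protein-coding genes, the summit was on the gene side for 65.2% of 9691 sg3 regions and for 64.7% of 5601 V2 ones. The start was covered by 35.0% and 25.7% of them.

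**Figure D4:**
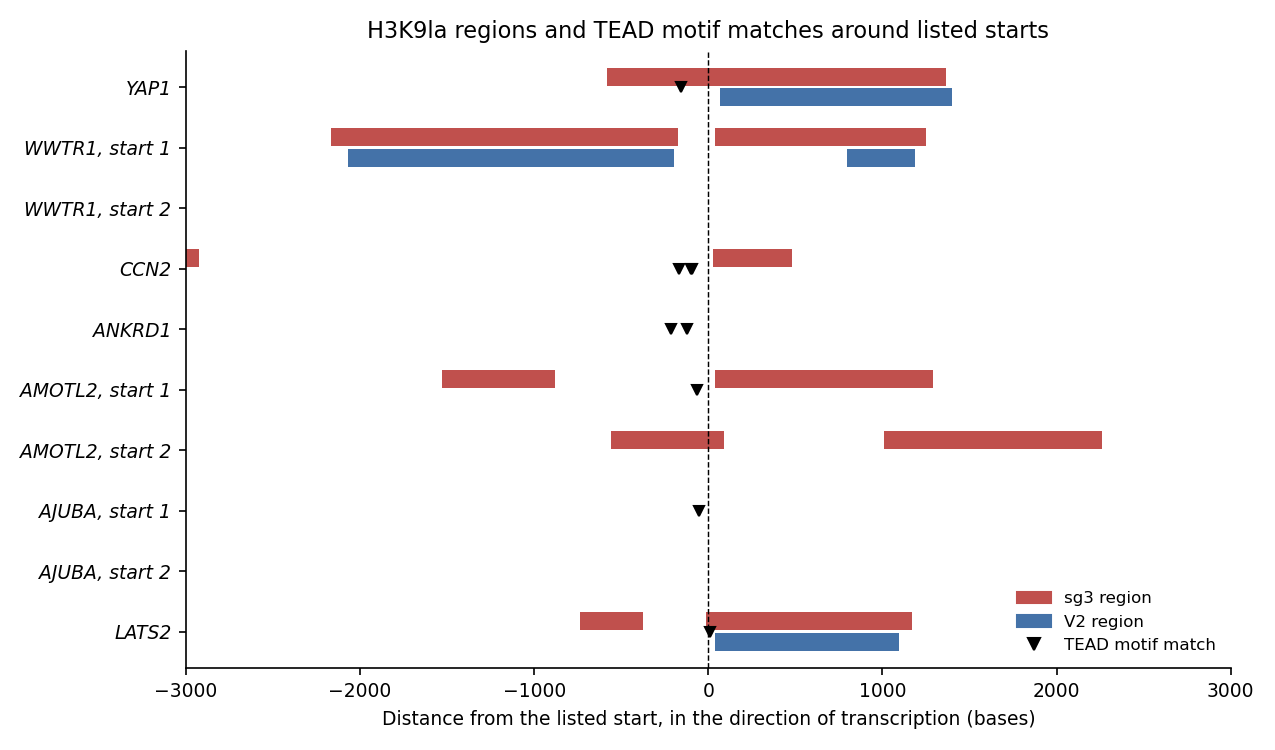
H3K9la regions within 3 kb of each listed start, by distance in bases in the direction of transcription (x axis), with sg3 above V2 for each start and GGAATG matches as triangles; bars are cut at the edges of the plot, and genes with several listed starts have 1 line per start, in order of position. The YAP1 and LATS2 matches lie in sg3 regions, and the CCN2 and ANKRD1 matches lie in no region.

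Overlap between the lists was counted for all windows and then for the factor genes and the target genes apart. In all windows, 41 of 96 sg3 regions had a partner, meaning a V2 region sharing at least 1 base, a share of 42.7% (exact 95% interval 32.7 to 53.2%). In turn 41 of 53 V2 regions had an sg3 partner, a share of 77.4% (63.8 to 87.7%). The shares over the whole lists were 52.4% and 86.3%, inside these intervals. At the 4 factor genes 33 of 62 sg3 regions had a V2 partner, 53.2% (40.1 to 66.0%). At the 6 target genes 8 of 34 did, 23.5% (10.7 to 41.2%), an interval that lies below the share of the whole list. Of these 34 regions, 15 lay in the AMOTL2 window, where 4 had a partner. The 34 had a median -log10 q of 9.79, against 13 in the whole list, and the 2 shares were not compared at like strength. The 4 shared target regions outside the AMOTL2 window were 2 in the CCN1 window, both nearest to DDAH1, 1 in that of CCN2 and 1 at LATS2. The shares include regions nearest to other genes. In sg3 these were 3 in the CCN1 and 4 in the AJUBA window, and 8 in the WWTR1 and 1 in the TEAD4 window. In the other direction the order was turned, with an sg3 partner for 33 of 44 V2 regions at factor genes, 75.0% (59.7 to 86.8%), and for 8 of 9 at target genes, 88.9% (51.8 to 99.7%). The intervals of the factor and target genes overlap in both directions, and the difference between them was not tested. Regions of 1 window are neighbours and not independent, and the intervals cover counting error only.

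Regions without a partner had a lower median -log10 q and a smaller median width in both lists. In sg3 the 55 regions without a V2 partner had a median -log10 q of 8.73, a median fold enrichment of 4.41 and a median width of 451 bases. The 41 with a partner had 23.3, 6.25 and 732 bases. In the whole sg3 list the median -log10 q was 9.08 without a partner and 21.4 with one. For the V2 list the median -log10 q was 8.86 over the 12 partnerless regions and 13.7 over the other 41. Their median widths were 390.5 and 595 bases, while their median fold enrichments, 5.68 and 5.84, lay close together. These 12 were 5 in the WWTR1 window, 4 in TEAD1, 2 in YAP1 and 1 in AMOTL2. The sg3 regions of the target genes had a median -log10 q of 9.79, and those of the factor genes 12.7. Of the 28 sg3 regions at a -log10 q of 20 or more, 22 had a partner, or 78.6%, against 85.6% of all sg3 regions of that strength. Of the 10 such V2 regions, 10 did, against 99.5% of all V2 regions of that strength.

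**Figure D5:**
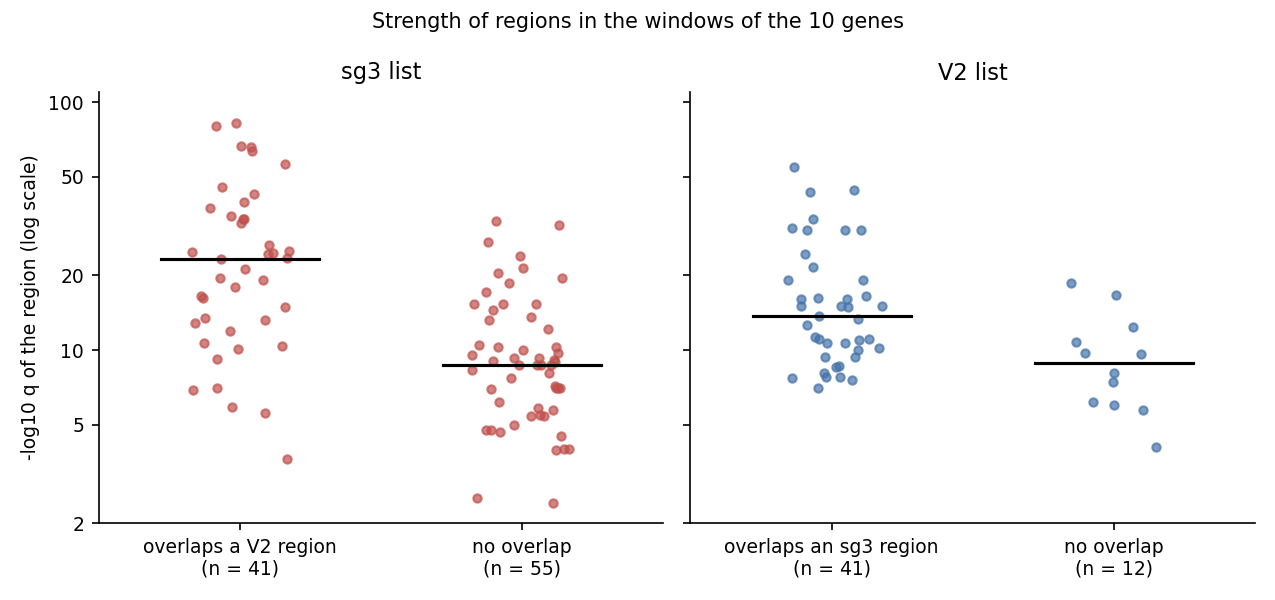
The -log10 q of each region (log-scaled y axis) in the windows of the 10 genes, for the sg3 list on the left and the V2 list on the right, split by overlap with the other list; black lines are medians. Regions without overlap sit lower in both lists, with medians of 8.73 against 23.3 in sg3 and 8.86 against 13.7 in V2.

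Where both lists had a region, its position was close and its width was larger in sg3. The 41 overlapping pairs had summits a median of 61 bases apart, and in 35 pairs they were at most 200 bases apart. The sg3 region was the wider one in 34 pairs, or 82.9%, and 81.6% of all overlapping pairs of the lists showed this. Median widths over the pairs were 732 bases (sg3) and 595 bases (V2). In runs of at least 4 regions spaced at most 2 kb apart lay 43.8% of the sg3 and 43.4% of the V2 regions in these windows, against 46.9% and 43.7% of the whole lists.

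Other genes of the pathway were widely marked at their starts, again more in sg3. No start was listed for 2 of the Hippo genes and 9 of the further targets below. Either end of the gene was used for these. Of 21 Hippo core and regulator genes, 10 had a region at the start in both lists, 5 in sg3 alone, 0 in V2 alone and 6 in neither. The sg3-alone genes with the highest -log10 q were LATS1, the sister kinase of LATS2 (fold enrichment 4.18, -log10 q 22.5), NF2, the merlin tumour suppressor that activates LATS kinases (3.76, 16.0), FRMD6 (5.28, 7.84) and STK4, a kinase that activates LATS (2.87, 6.71). Of 22 further YAP-TEAD target genes, 13 were marked in both lists, 6 in sg3 alone, 0 in V2 alone and 3 in neither. Genes marked in sg3 alone were 18.9% of all protein-coding genes, set beside the 5 of 21 and 6 of 22 here. That share depends on how many genes are marked at all. Among genes with an sg3 region at the start, 5 of 15 and 6 of 19 had no V2 one. Over all protein-coding genes this held for 3775 of 9419, a larger share, and the difference was not tested. The sg3-alone targets named by the same rule were TNFRSF12A, a TNF receptor family gene (4.97, 20.1), and EDN1, the endothelin gene (6.17, 19.1). Next came NUAK2, a kinase gene (2.60, 8.31), and FJX1 (2.79, 7.51). TNFRSF12A had no listed start, so its region may lie at the 3' end and not at the start. The sg3 shares of these lists were 71.4% and 86.4% and the V2 shares 47.6% and 59.1%, set beside the 47.2% and 28.7% of all protein-coding genes given above. The lists were chosen with earlier results of these data known, so the higher shares are no independent finding. Among the further targets marked in both lists, GADD45A, a stress-response gene, was chosen for mention after its values were seen. It had no listed start, and its region at an end of the gene had a fold enrichment of 11.2 in sg3 (-log10 q 125) and 9.02 in V2 (84.7).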

How the data were processed

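The build hg38 and the tools MACS2 2.2.9.1, Bowtie2 2.5.1, SAMtools 1.18, Trim Galore 0.6.10 and FastQC 0.12.1 are named, per the submitters' processing notes. Not given in the sources used here are the MACS2 command, the control used for each list, any pooling and the depth. The authors deposited 1 peak list for each arm, that of V2 under its input sample. Fold enrichment is a ratio deposited by the authors, and the -log10 p and -log10 q are likewise the authors' deposited values, with the -log10 q used here. The deposited integer score was not used, and the summit offset served for positions.

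Gene positions and promoters came from RefSeq tables of GRCh38.p14 without exons, so exonic and intronic regions were not separated. Regions of the 2 lists were partners when they shared at least 1 base. A region was at a start within 1 kb of it. For any gene without a listed start, either end of the gene was used. Exact Clopper-Pearson 95% intervals were computed with scipy 1.17.1. Interval code was tested on simulated data. The arms were compared without a test, each having 1 ChIP library. The members, lists and rule for named genes were chosen with earlier results of these data known. The rule names all 10 genes with their start regions and strongest regions, the neighbour nearest to a strongest region, and up to 4 genes per pathway list, those in 1 list alone first, by -log10 q. GADD45A was named outside this rule, after its values were seen. The planned motif search around summits needs a genome sequence and was not run. Alternatives changed the thresholds, list lengths, merging, windows and overlap, and 2 more were chosen after seeing the data.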

Additional observations from a re-analysis of the deposited data

How the results depend on the processing

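Of 66 recomputed totals over the 10 genes, 60 stayed close to the reported value, meaning within 1.5 times for counts and inside the exact interval for shares. With a -log10 q of at least 10, the windows held 55 sg3 regions and 34 V2 regions, in place of 96 and 53. With regions within 1 kb merged, sg3 had 60. In lists of equal length 54.5% of the sg3 regions had a V2 partner, and 54.2% did when a V2 region within 1 kb sufficed, in place of 42.7%. With a fold enrichment of at least 4, an sg3 region lay at the start of 5 genes in place of 8. Each of these settings removes, joins or widens regions by its construction. Counted per gene, 120 values stayed within 1.5 times and 40 did not. A count of 0 could rise only with the 100 kb window, so under the other settings it stayed the same by construction. With that window, ANKRD1 rose from 0 to 3 in sg3. In V2, TEAD4 rose from 0 to 1, ANKRD1 to 2 and AJUBA to 5. Regions nearest to the gene itself, an alternative chosen after seeing the data, gave 0 for AJUBA in sg3 and 0 for CCN1 in V2. The same alternative put TEAD1 (23) ahead of WWTR1 (18) in sg3 and left them level in V2 (15 each). Using either end of a gene as its start, also chosen after seeing the data, gave 7 genes in sg3 and 3 in V2. The share of regions with a TEAD motif around the summit was not run. No paired analysis was possible because each arm has 1 library and the values come from no test.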
